A study of Mus musculus with 2 samples.

Results

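The genes described are 9 scavenger receptor genes (Msr1, Marco, Cd36, Cd68, Scarb1, Scarb2, Stab1, Cd163 and Cd14), taken by symbol from the Ensembl identifiers of the deposited count table, which holds 22060 genes. All 9 were found, and all 9 passed the minimum of 20 summed counts that 11199 genes of the table passed. RNA came from macrophages that were derived from the bone marrow of C57BL/6 mice aged 8 weeks, grown for 7 days with M-CSF and left untreated (0 h). One library was from wild-type animals (WT) and 1 library from animals whose STAT2, a transcription factor of the type I interferon response, carries the T403A substitution of threonine by alanine. The sources used here do not give how the T403A allele was made or whether marrow of several animals was pooled.

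Scavenger receptors are surface and endosomal proteins of macrophages that bind modified lipoproteins, microbial surfaces, cell debris and other polyanionic or lipid ligands, and bring them into the cell. The class A receptors SR-A (Msr1) and MARCO have collagen-like stalks. The class B proteins CD36, SR-BI (Scarb1) and LIMP-2 (Scarb2) span the membrane at both ends and handle fatty acids, lipoprotein cholesterol and traffic to the lysosome. CD68 is a lysosomal and endosomal glycoprotein, stabilin-1 (Stab1) a large endocytic receptor, CD163 the receptor for haemoglobin bound to haptoglobin, and CD14 the lipid-anchored protein that hands lipopolysaccharide to TLR4.

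With 1 library per genotype there is no replicate check and no p-value, and each statement compares these 2 libraries, not the genotypes. The WT library held 16033032 counts and the T403A library 18658381. Counts were scaled with TMM and are given as CPM, which is relative to the scaled total of the library. Each T403A to WT ratio has an exact 95% interval (Clopper-Pearson) that covers counting error only. A gene is called higher or lower when the ratio is at least 1.5-fold and this interval excludes 1. Of all measured genes, 13.5% were called higher and 10.8% lower in T403A. With library size in place of TMM the median log2 ratio of all genes moved by 0.19, from 0.01 to 0.20, and the calls went from 1515 higher and 1214 lower to 2290 higher and 890 lower. The Stat2 level was 376 CPM in WT against 84.4 in T403A, and a substitution need not change a gene's count, so this does not check the labels.

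Among the 9 receptor genes, Msr1, Marco and Cd14 were called lower in T403A and Scarb1 was called higher, while Cd36, Scarb2, Cd68, Stab1 and Cd163 were called in neither direction. The share of members called lower was 33.3%, against 10.8% of measured genes, and the share called higher was 11.1%, against 13.5%. The median log2 ratio of the 9 genes was -0.52, against 0.01 over all measured genes. All members but Cd163 were in the most abundant quintile of the 8182 genes whose mean was 10 CPM or more. Among those 8182 genes, a set chosen after the values were seen, 10.6% were called lower and 8.3% higher, and the median was -0.03. The 9 genes thus held more lower calls than the background share. The list has only 9 genes and was chosen with earlier results of these data known, so no conclusion is drawn from this.

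**Figure D1:**
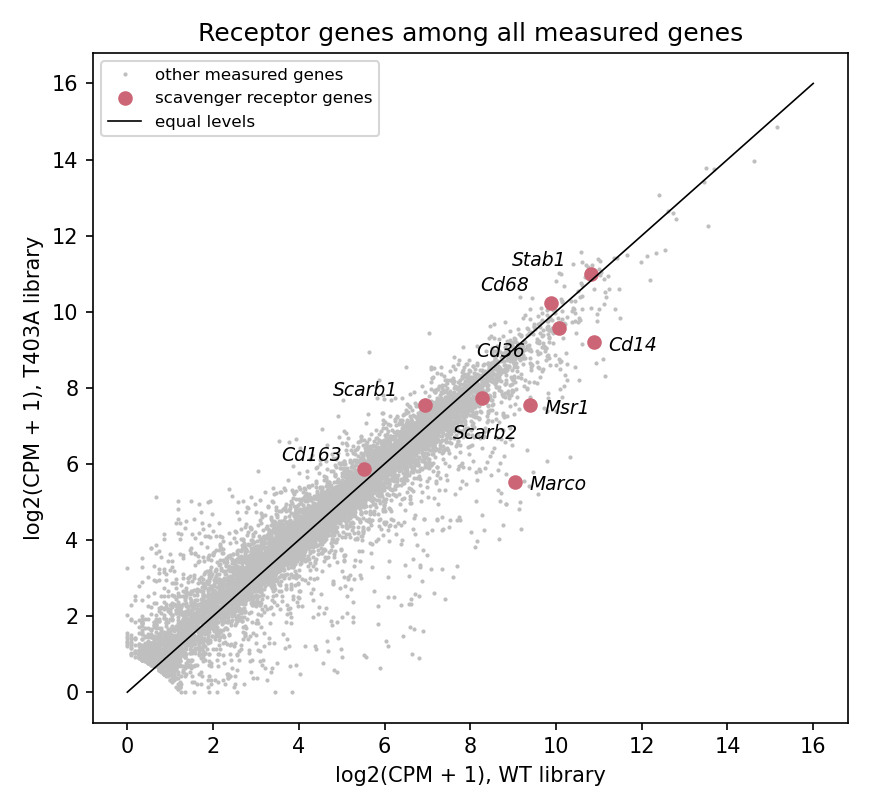
Each point is a measured gene, with log2(CPM + 1) in the WT library on the horizontal axis and in the T403A library on the vertical axis, the 9 receptor genes in red and the line of equal levels in black. Marco (523 and 45.2 CPM) lies farthest below the line of the 9, with Msr1 and Cd14 also below it and Scarb1 (121 and 187 CPM) above it.

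The stretch upstream of the gene start is shown for Marco, the member with the largest difference, and for Cd68 and Stab1, which lay within 1.5-fold. These 3 are also the members in which the core of the PU.1 site was found, PU.1 being the factor that directs macrophage development. Sequences are 250 bases ending just before the RefSeq gene start, from RefSeq on GRCm38.p6, read 5′ to 3′ on the strand of the gene, which is the minus strand for all 3. The table of promoters held 6 of the 9 members (Marco, Cd36, Scarb2, Cd163, Cd68 and Stab1). Capitals mark the matched motif letters.
Marco, chr1:120505025-120505274: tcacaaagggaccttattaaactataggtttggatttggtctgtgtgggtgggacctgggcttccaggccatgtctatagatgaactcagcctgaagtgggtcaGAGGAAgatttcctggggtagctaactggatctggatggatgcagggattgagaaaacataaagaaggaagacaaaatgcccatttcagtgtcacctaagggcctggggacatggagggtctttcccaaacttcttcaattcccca
Cd68, chr11:69666171-69666420: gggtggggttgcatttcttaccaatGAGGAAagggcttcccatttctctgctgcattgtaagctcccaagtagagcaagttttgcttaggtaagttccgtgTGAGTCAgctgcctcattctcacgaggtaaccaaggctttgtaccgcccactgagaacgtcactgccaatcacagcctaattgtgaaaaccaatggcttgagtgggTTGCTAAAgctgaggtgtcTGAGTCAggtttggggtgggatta
Stab1, chr14:31168642-31168891: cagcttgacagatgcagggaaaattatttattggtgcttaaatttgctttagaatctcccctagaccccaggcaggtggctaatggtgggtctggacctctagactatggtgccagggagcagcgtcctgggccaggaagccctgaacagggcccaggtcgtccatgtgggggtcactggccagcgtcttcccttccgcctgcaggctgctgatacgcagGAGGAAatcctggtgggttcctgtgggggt

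The capitals in Marco and Stab1 are the PU.1 core GAGGAA, searched on both strands, at -146 to -141 and -30 to -25, where -1 is the base before the gene start. In Cd68 the same core stands at -225 to -220. Of 32851 promoter windows of the same length, 23.3% hold it. Cd68 also holds the AP-1 motif TGANTCA at -149 to -143 and at -24 to -18 (in 6.75% of windows) and the C/EBP motif TTGCNNAA at -43 to -36 (9.56%). The core of the interferon-stimulated response element is in 2.98% of windows and the STAT motif TTCNNNGAA in 7.02%. Neither has a match in the 6 member windows, Marco included, which says only that these letters are not in these 250 bases. The windows of Cd36 (chr5:17835897-17836146) and Scarb2 (chr5:92505658-92505907) lie inside the gene spans given below, not upstream of them. The antioxidant response element core TGACNNNGC (10.2% of windows) matched in Scarb2 alone of the 6, and the E-box CACGTG (6.02%) in none. No motif overlapped another in the 3 windows shown.

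Both class A receptor genes were lower in the T403A library. Marco encodes the collagenous receptor that binds bacteria and inhaled particles. It lies on chromosome 1 (120474538 to 120505024, minus strand, GRCm38, identifier ENSMUSG00000026390, protein-coding) with 17 exon blocks. With 7849 counts in WT against 901 in T403A, or 523 and 45.2 CPM, it was 11.6-fold lower (95% counting interval 10.8 to 12.4). Only 97 of the measured genes had a lower log2 ratio than that of Marco (-3.53).

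Msr1 encodes SR-A, which takes up acetylated and oxidised low-density lipoprotein. Its gene (ENSMUSG00000025044) is on chromosome 8, from 39581685 to 39642673 on the minus strand, with 11 exon blocks. Msr1 had 10042 counts in WT against 3691 in T403A, at 669 and 185 CPM. It was 3.62-fold lower in T403A (interval 3.48 to 3.76), and 308 measured genes had a lower log2 ratio.

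The difference was larger for Marco than for Msr1, and their order within a library changed when levels were divided by length. By counts, Msr1 was above Marco in both libraries (10042 and 7849 in WT, 3691 and 901 in T403A). Per kilobase of gene length, Msr1 stood at 0.388 times the level of Marco in the WT library and at 1.24 times its level in the T403A library. This ratio does not depend on how the libraries are scaled but does depend on the gene lengths used. Its change was 3.20-fold (counting interval 2.96 to 3.46).

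Cd14 was lower as well, as were some genes of its signalling partners. Cd14 (ENSMUSG00000051439, chromosome 18, 36725067 to 36726798, minus strand, 1 exon block) had 28175 counts in WT against 11656 in T403A. At 1878 and 585 CPM it was 3.21-fold lower (3.14 to 3.28). The deposited length of Cd14 is 1572 bases and the M21 exon union 1732 bases, so its level per length depends on the length used.

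Of 16 measured genes in the list of CD14 partners, 4 were called lower (25%, against 10.8% of all measured genes). None was called higher, against 13.5% of all measured genes. The list had a median log2 ratio of -0.32, against 0.01 over all measured genes. The 4 were the lipopeptide receptor gene Tlr1 (2.17-fold), the integrin gene Itgam (2.04-fold), the co-receptor gene Ly86 (1.73-fold) and the adaptor gene Myd88 (1.73-fold). Itgam shares exon bases with a second model of the table that runs on the same strand, and Myd88 with Acaa1a on the other strand. The abundant members Itgb2, the common chain of leukocyte integrins (1372 and 1077 CPM), and Tlr2 (601 and 466 CPM) were called in neither direction. Tlr4, the receptor that CD14 serves, stood at 228 CPM in WT against 202 in T403A, and its partner Ly96 (MD-2) was at 10.7 and 8.78 CPM. Per kilobase, Cd14 stood at 29.2 times the level of Tlr4 in WT and 10.2 times in T403A, a 2.85-fold change (2.71 to 2.99). The ratio of Cd14 to Ly96 changed 2.63-fold (2.12 to 3.26) in the same direction. Tlr4 and Ly96 were singled out for their known role with CD14.

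**Figure D2:**
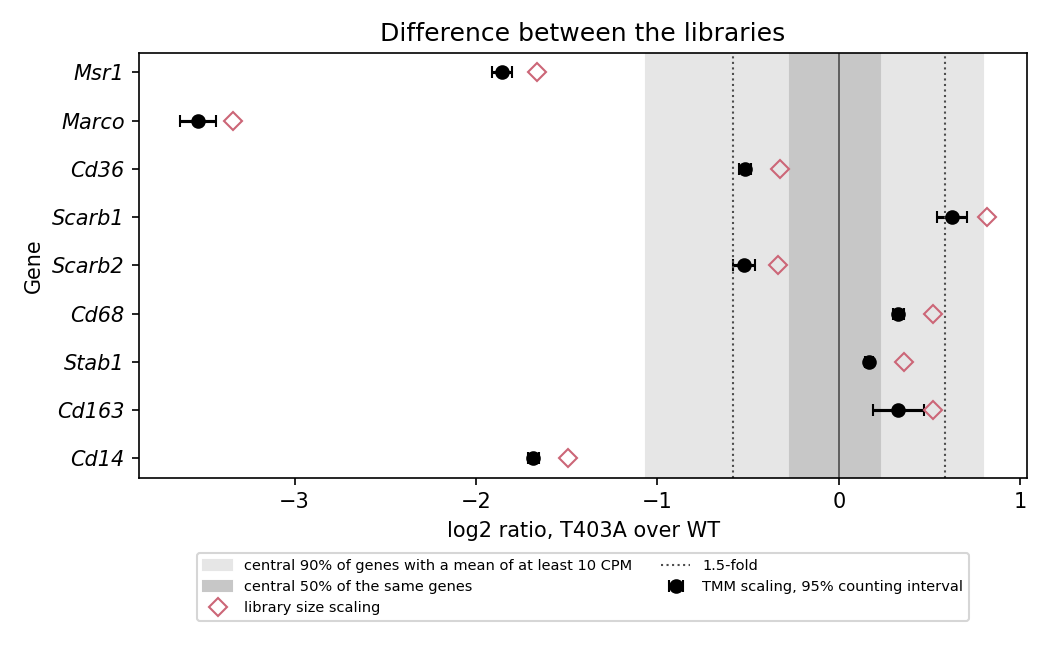
The log2 ratio of T403A to WT is plotted for each receptor gene, as black points with 95% counting intervals after TMM scaling and as open diamonds after library size scaling, over bands holding the central 50% and 90% of genes whose mean was 10 CPM or more. Marco (-3.53), Msr1 (-1.85) and Cd14 (-1.68) lie left of both bands, and the other 6 genes lie within the 90% band except that Scarb1 reaches 0.81, just past its edge at 0.80, with library size scaling.

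The class B genes went both ways and by less. Cd36, the receptor for long-chain fatty acids, oxidised lipoprotein and thrombospondin, is on chromosome 5 (17781690 to 17888801, minus strand, ENSMUSG00000002944, 17 exon blocks). Cd36 had 16236 counts in WT against 15070 in T403A. At 1082 and 756 CPM it was lower by 1.43-fold (1.40 to 1.46), short of the threshold.

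Scarb2 encodes LIMP-2, an abundant protein of the lysosomal membrane (chromosome 5, 92441314 to 92506833, minus strand, ENSMUSG00000029426, 12 exon blocks). With 4606 and 4255 counts it stood at 307 CPM in WT against 213 in T403A, a 1.44-fold difference (1.38 to 1.5) that is also short of the threshold. The per-kilobase ratio of Scarb2 to Cd68, a second lysosomal glycoprotein gene, went from 0.0648 in WT to 0.0359 in T403A, a 1.81-fold change (1.72 to 1.89) that does not depend on scaling.

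Scarb1, which encodes the high-density lipoprotein receptor SR-BI, was the 1 member called higher. It lies on chromosome 5 (125277087 to 125341094, minus strand, ENSMUSG00000037936, 16 exon blocks). Scarb1 had 1820 counts in WT against 3726 in T403A, at 121 and 187 CPM, and was 1.54-fold higher (1.46 to 1.63). The lower bound of this interval is under the 1.5-fold threshold, and at a threshold of 2-fold, which 7.21% of measured genes passed as higher and 6.08% as lower, Msr1, Marco and Cd14 were the only members called. Cd36 stood at 21.1 times the level of Scarb1 per kilobase in WT and at 9.58 times in T403A, a 2.21-fold change (2.08 to 2.34).

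The list of fatty acid uptake and storage genes had 25 measured genes. Of these, 5 were called lower (20%, against 10.8% of all measured genes) and 4 higher (16%, against 13.5%). The median log2 ratio was -0.06 and 0.13 with library size scaling, where 4 were called lower and 5 higher. Thbs1, which encodes the CD36 ligand thrombospondin-1, went from 560 CPM in WT to 27.0 CPM in T403A and was 20.7-fold lower (19.0 to 22.6). A model outside the table overlaps exons of Thbs1 from the other strand. The acyl-CoA synthetase gene Acsl1, which has the same kind of overlap, was 4.60-fold lower. The lipid droplet coat gene Plin2 was 2.62-fold lower, and the lipoprotein lipase gene Lpl (2608 and 2739 CPM) was called in neither direction. The 4 higher genes were Cd81 (1.70-fold), Ppard (1.55-fold), Fabp5 (1.52-fold) and Plin3 (1.51-fold).

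The list of lipoprotein cholesterol genes had 17 measured genes. Of these, 6 were called lower (35.3%, against 10.8% of all measured genes) and 1 higher (5.88%, against 13.5%). The median log2 ratio was -0.08 and 0.11 with library size scaling, where 5 were called lower and 3 higher. Nr1h3, which encodes the sterol-sensing liver X receptor alpha, stood at 67.5 CPM in WT against 14.8 in T403A, 4.55-fold lower (3.99 to 5.20). A model outside the table overlaps 34 of its exon bases on its own strand. Apoe, the gene of apolipoprotein E, was 2.44-fold lower, and the lysosomal lipase gene Lipa was within 1.5-fold (2033 and 2658 CPM). Abcg1, which exports cholesterol to high-density lipoprotein, was the 1 higher gene (1.69-fold). No count of Pdzk1, the adaptor that binds SR-BI in liver, was found in either library.

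Cd68 was within 1.5-fold in the libraries. The gene (chromosome 11, 69664213 to 69666153, minus strand, ENSMUSG00000018774, 6 exon blocks) had 14211 counts in WT against 23702 in T403A. At 947 and 1189 CPM it was 1.25-fold higher (1.23 to 1.28), which is short of the threshold. Of 22 measured genes in the lysosomal list, 2 were called lower (9.09%, against 10.8% of all measured genes) and 1 higher (4.55%, against 13.5%). The list had 19 genes called in neither direction and a median log2 ratio of 0.11. With library size scaling 1 was called lower and 3 higher, with the median at 0.30. At TMM scaling the lower genes were the protease gene Ctsl (2.06-fold), whose exons overlap models outside the table on both strands, and the transcription factor gene Mitf (1.51-fold). Mcoln1, the lysosomal calcium channel gene, was 1.95-fold higher. The abundant Psap (11522 and 14059 CPM) and Ctsb (11139 and 10826 CPM) were called in neither direction. Exons of Ctsb overlap those of Fdft1 on the opposite strand.

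Stab1 was the member with the most counts over both libraries, and it lay within 1.5-fold. Stabilin-1 takes up acetylated lipoprotein and the matrix protein SPARC. Stab1 (ENSMUSG00000042286, chromosome 14, 31139013 to 31168641, minus strand) has 58 exon blocks, of which 112 bases overlap exons of Nt5dc2 on the opposite strand. It had 27150 counts in WT against 40482 in T403A, at 1810 and 2030 CPM, a ratio of 1.12 (1.10 to 1.14). Nt5dc2 itself had 999 and 2606 counts, and the sources used here do not give the strand setting of the counting. Lrp1, a large endocytic receptor gene of similar abundance, stood at 2056 CPM in WT against 2248 in T403A, and the ratio of Stab1 to Lrp1 per kilobase was 1.52 in WT and 1.56 in T403A.

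Cd163 was the least abundant member and differed by less than 1.5-fold. The gene lies on chromosome 6 (124304656 to 124330527, ENSMUSG00000008845, 16 exon blocks), the 1 member on the plus strand. With 679 counts in WT against 1133 in T403A it was at 45.3 and 56.8 CPM, a ratio of 1.26 (1.14 to 1.38). The list of haemoglobin, haem and iron genes had 16 measured genes. Of these, 5 were called lower (31.25%, against 10.8% of all measured genes) and 1 higher (6.25%, against 13.5%). The median log2 ratio there was -0.22. With library size scaling 4 were called lower and 3 higher, and the median was -0.03. Haptoglobin (Hp), which presents haemoglobin to CD163 in humans, stood at 212 CPM in WT against 23.2 in T403A, 9.12-fold lower (8.27 to 10.1). The haem-degrading enzyme gene Hmox1 was 2.02-fold lower and the ferritin gene Fth1 1.56-fold lower, while the iron exporter gene Slc40a1 (ferroportin) was 2.27-fold higher (2.15 to 2.40).

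**Figure D3:**
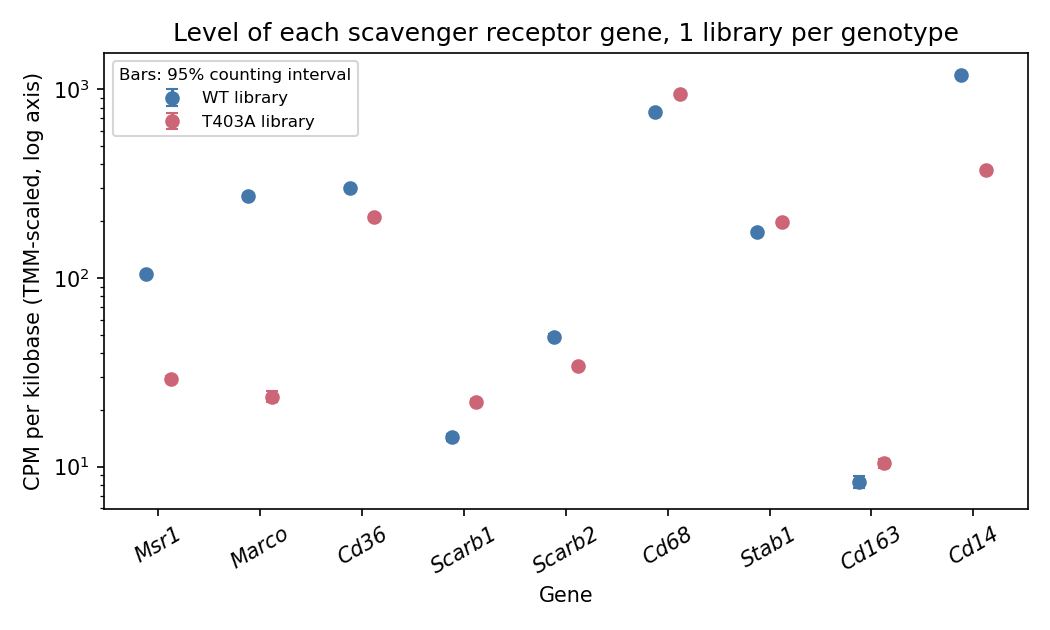
Levels are in CPM per kilobase on a log axis, with 1 point per gene and library and bars for the 95% counting interval, which are mostly smaller than the points. The libraries lie farthest apart at Marco (272 and 23.5) and close together at Stab1 (176 and 197), and Cd68 (946) takes the top place in T403A that Cd14 (1195) holds in WT.

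Per kilobase of deposited gene length, the order of the members differed between the libraries. In WT it ran from Cd14 (1195 CPM per kilobase) through Cd68 (754), Cd36 (301), Marco (272), Stab1 (176), Msr1 (106), Scarb2 (48.9) and Scarb1 (14.3) to Cd163 (8.29). In T403A it ran from Cd68 (946) through Cd14 (372), Cd36 (211), Stab1 (197), Scarb2 (34.0), Msr1 (29.2), Marco (23.5) and Scarb1 (22.0) to Cd163 (10.4). Neighbours in each order were separated by their counting intervals, except Marco (22.0 to 25.1) and Scarb1 (21.3 to 22.7) in T403A. Among the 11199 measured genes, Cd14 ranked 18 in WT and 58 in T403A by level per kilobase. Marco ranked 119 in WT and 1837 in T403A, and Msr1 ranked 397 and 1402. Cd68 went the other way, from rank 37 to 21, as did Scarb1, from 3198 to 1959.

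The 9 genes together summed to 2874 CPM per kilobase in WT and 1844 in T403A, 1.56-fold less. The genes called lower, Msr1, Marco and Cd14, summed to 1572 and 424 CPM per kilobase. The other 6 genes summed to 1302 and 1420, with Cd36 (301 and 211) and Scarb2 (48.9 and 34.0) at lower values in T403A and Cd68 (754 and 946) at a higher one. Cd14 alone made up 41.6% of the sum in WT and 20.2% in T403A, and Cd68 26.2% and 51.3%. Marco went from 9.46% to 1.27% of the sum and Msr1 from 3.67% to 1.58%. These shares do not depend on the scaling of the libraries but do depend on the division by length. As shares of the summed counts, Cd14 was 25.4% and 11.1%, Cd68 12.8% and 22.7%, Marco 7.09% and 0.861%, and Msr1 9.07% and 3.53%.

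**Figure D4:**
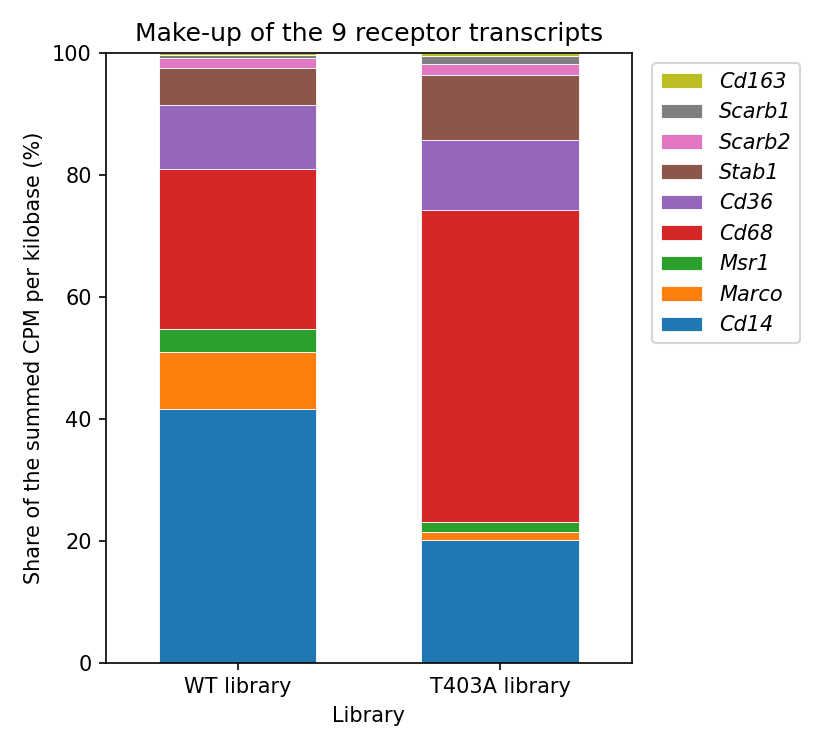
Each bar is 1 library and each coloured part is the share of 1 gene in the summed CPM per kilobase of the 9 genes, in percent. Cd14, Marco and Msr1, stacked at the bottom, make up 54.7% in WT and 23.0% in T403A, and Cd68 makes up 51.3% in T403A.

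Other scavenger receptor genes also differed in both directions. Of 24 such genes in the list, 13 were measured, with a median log2 ratio of -0.44. Of these 13, 6 were called lower (46.2%, against 10.8% of all measured genes) and 3 higher (23.1%, against 13.5%). Olr1, the receptor LOX-1 for oxidised lipoprotein, had 84 counts in WT against 3 in T403A, 37.2-fold lower (12.3 to 184). Lgals3bp, a secreted protein with a scavenger receptor domain, stood at 1480 CPM in WT against 293 in T403A, 5.06-fold lower (4.91 to 5.21). The 3 higher genes were Stab2, the paralogue of Stab1, on 2 and 22 counts (8.28-fold, 2.03 to 72.6), Mrc1, the mannose receptor gene (57.5 and 295 CPM, 5.12-fold), and Scarf2 on 7 and 36 counts (3.87-fold, 1.70 to 10.3). A model outside the table overlaps exons of Stab2 from the other strand. Scara5, Megf10, Cd163l1, Asgr1 and Dmbt1 had no counts in either library. For a count of 0 a fixed limit of 3 counts was used, or 0.200 CPM in WT and 0.150 CPM in T403A. This limit is not the Poisson interval used for CPM.

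The list of factors and receptors known to regulate scavenger receptor genes had 24 measured genes, with a median log2 ratio of -0.39. Of these, 7 were called lower (29.2%, against 10.8% of all measured genes) and 1 higher (4.17%, against 13.5%). Among the lower genes, Nr1h3 was as above. Csf1r, the M-CSF receptor gene that keeps macrophages alive, stood at 7146 CPM in WT against 5503 in T403A. Nfe2l2, which encodes the antioxidant factor NRF2, was at 662 and 690 CPM, and neither gene met the conditions. Exons of Csf1r overlap those of Hmgxb3 on the opposite strand. The PU.1 gene Spi1, singled out because its core motif is shown above, stood at 535 CPM in WT against 405 in T403A and was called in neither direction. AP-1 and C/EBP motifs are shown above as well. Of their genes in the list, Fos (4.23-fold), Cebpb (3.30-fold) and Junb (2.06-fold) were called lower. Jun and Cebpa were called in neither direction. Exons of Cebpb and Junb overlap those of other genes on the opposite strand.

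As a reference group, all 20 listed interferon-stimulated genes were called lower in T403A, with a median log2 ratio of -3.78 and a range from -6.99 (Oasl1) to -1.45. The abundant members Ifit3 and Bst2 were 21.5-fold and 5.60-fold lower, and Ifi44 was 98.8-fold lower. Marco (-3.53) lay within the range of this group and the other 6 receptor genes outside it. Msr1 (-1.85) and Cd14 (-1.68) lay within it only through Irf9 (-1.45), since the next gene was Cxcl10 (-2.04). Exons of Irf9 overlap those of Rnf31 on the same strand, and exons of Cxcl10 those of Art3 on the opposite strand. Whether the receptor genes respond to interferon in these cells was not tested.

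**Figure D5:**
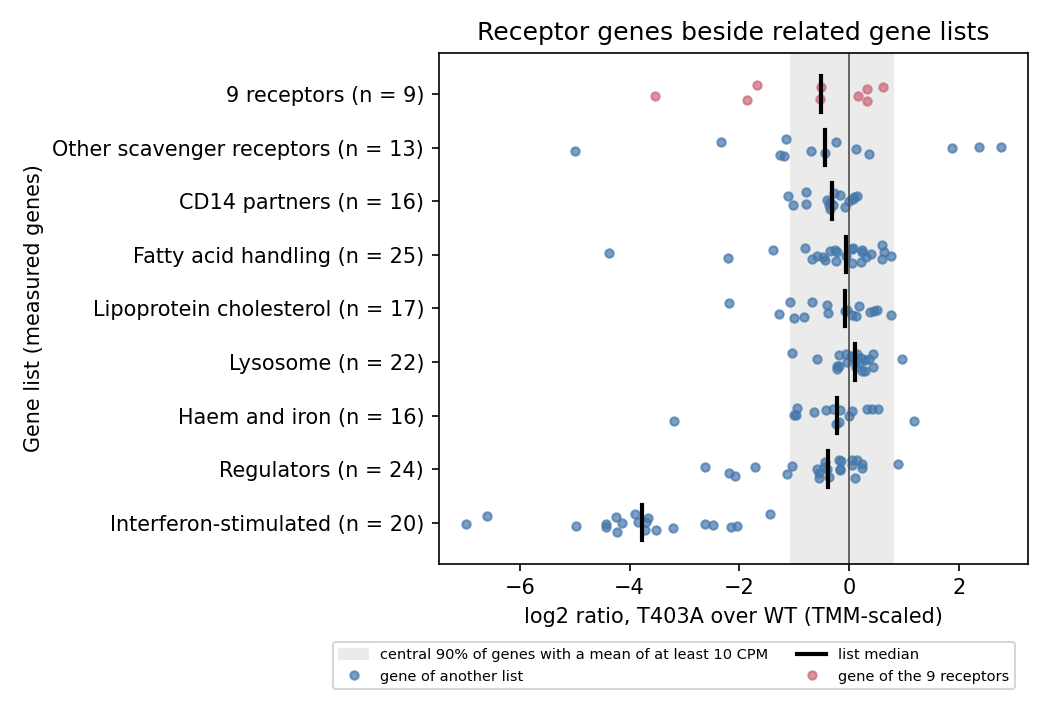
Each point is a measured gene, placed by its log2 ratio of T403A to WT, in 1 row per gene list with a black bar at the list median and a grey band for the central 90% of genes whose mean was 10 CPM or more. The 9 receptor genes spread from -3.53 to 0.62, the lysosomal list centres near 0 (median 0.11) and the interferon-stimulated list lies wholly to the left (median -3.78).

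The macrophage label was checked against marker genes. All 16 macrophage markers were measured, and 8 were called lower and none higher in T403A. Per kilobase the highest were Lyz2 (36620 and 29804 CPM) and Ctss (4057 and 2535 CPM). Csf1r (7146 and 5503 CPM) and Mpeg1 (6812 and 6129 CPM) had more CPM than Ctss and were called in neither direction. The share called lower was 50%, against 10.8% of all measured genes, of which 13.5% were called higher. The median log2 ratio of the 16 markers was -0.60. Fcgr1 was 8.76-fold lower and Aif1 4.45-fold lower. Trem2 (1.11-fold) and Fcgr3 (1.19-fold) were higher in T403A, short of the threshold. In bulk RNA, fewer cells of a type and less RNA per cell cannot be told apart.

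Markers of monocytes, which also carry CD14 and CD36, summed to 356 CPM in WT and 90.3 in T403A over 9 genes. In that list 4 of 8 measured genes were called lower (50%, against 10.8% of all measured genes) and none higher (against 13.5%). No marker was at 0. Most of the difference in the sum lay in Hp (212 and 23.2 CPM) and Ly6c2 (64.7 and 1.55 CPM, 41.6-fold lower). Vcan (22.4 and 16.7 CPM), Ccr2 (22.7 and 25.1), Chil3 (1.20 and 1.35) and F13a1 (345 and 358 counts) were not called in either direction. Their part in the values of Cd14, Marco and Msr1 was not tested. Among 8 markers of tissue-resident macrophages, 4 were measured, Siglec1 being 5.17-fold lower and Mrc1 and Folr2 called higher. Of the 4, 25% were thus called lower and 50% higher, against 10.8% and 13.5% of all measured genes. Clec4f and Cd209f had no counts in either library and Timd4 none in T403A. The list summed to 1179 CPM in WT and 514 in T403A, of which Siglec1 gave 1120 and 217 CPM. The median log2 ratio of the 4 measured genes was 1.32. It rests on the low counts of Folr2 (9 and 28) and Vsig4 (4 and 16, not called).

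Endothelial cells also express Stab1, Scarb1 and Cd36. Their 9 markers summed to 77.4 CPM in WT and 228 in T403A, of which Vwf alone gave 61.0 and 222 CPM. Of 5 measured, 3 were called lower (60%) and 2 higher (40%), against 10.8% and 13.5% of all measured genes. Pecam1 (40 and 2 counts) was 26.6-fold lower (6.89 to 227). Emcn had no counts in either library, Tek 0 in WT and Cdh5 0 in T403A. Markers of adipocytes and marrow stroma summed to 5.20 and 3.91 CPM over 11 genes, with Cidec, Lep and Lepr at 0 in both libraries. The 12 megakaryocyte, platelet and erythroid markers summed to 38.7 and 8.22 CPM, of which Pf4 gave 33.8 and 4.71, and Gp9, Gp1bb, Hba-a1 and Hbb-bt were at 0 in both.

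The 9 dendritic cell markers summed to 3.93 CPM in WT and 3.56 in T403A. The 11 neutrophil markers summed to 289 and 176 CPM, nearly all of it Csf3r (280 and 165 CPM), with Elane and Ly6g at 0 in both libraries. The 10 lymphocyte markers summed to 15.9 and 6.67 CPM, nearly all of it Cd4 (15.2 and 5.37 CPM), with Cd3e, Cd3d, Cd8a, Ncr1 and Nkg7 at 0 in both.

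Sequence properties of the genes moved little with the ratio. Across quintiles of the 8182 genes whose mean was 10 CPM or more, the median log2 ratio ran from -0.07 to 0.02 by GC content of the longest transcript, from -0.08 to 0.02 by length and from -0.12 to 0.09 by level. Of the 50-base stretches in the transcripts of each member, none was shared between members. Msr1, Marco, Cd36, Cd68, Scarb2 and Cd14 shared none with transcripts of any other gene, and the shared part was 0.0703% for Scarb1, 0.109% for Cd163 and 0.69% for Stab1.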

How the data were processed

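The series deposited 1 table of whole-number read counts per Ensembl gene, a column for each library and the length of each gene in bases, per the file headers. The build GRCm38 and the tools HISAT2, cutadapt 1.15, DESeq 1.30.0 and HTSeq 0.9.1 are named in the submitters' processing notes. The sources used here do not give what each tool did, the strand setting, the annotation release or the RNA selection. Columns were matched to samples by title, and all sample columns were used.

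Symbols were found for 21969 of 22060 identifiers, and a symbol shared by identifiers went to the one with most counts. Positions come from GENCODE M21 on the same build, whose exon union equalled the deposited length for 96.9% of genes. Scaling used TMM (edgeR 4.0.16, R 4.3.3); ratios carry exact 95% Clopper-Pearson intervals (scipy 1.17.1), and pairwise ratios of genes carry intervals from the sum of inverse counts. CPM intervals are exact Poisson ones. Log2 ratios use a prior count of 0.5. Genes with 20 or more summed counts were measured. Intervals cover counting error only, with 16033032 and 18658381 counts per library. The calling was also run on simulated libraries that held counting error only and were scaled by library size. Those say nothing of variation between libraries of a genotype or of the TMM scaling.

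The members and lists were chosen with earlier results of these data known. Named genes are the 9 members, Stat2, and from each list the 2 called genes with the largest log2 ratio and the 2 most abundant per length. Some listed genes are counted but not reported here. Genes named beyond this rule, the motifs and the pairwise ratios were chosen after values were seen. Alternatives were library size, DESeq2 (1.42.0) and upper quartile scaling, TMM without interferon-stimulated and mitochondrial genes, a prior count of 5, a 2-fold threshold, other count filters, and shares without length.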

Additional observations from a re-analysis of the deposited data

How the results depend on the processing

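Each of the 9 log2 ratios kept its direction and its side of the 1.5-fold threshold under library size scaling, DESeq2 size factors, upper quartile scaling, TMM without interferon-stimulated and mitochondrial genes, and a prior count of 5. Across these, Marco ranged from -3.54 to -3.34, Msr1 from -1.86 to -1.66, Cd14 from -1.69 to -1.49 and Scarb1 from 0.62 to 0.81. The median of the members, -0.52, was -0.33 with library size scaling and -0.45 with upper quartile scaling, by construction of the scaling. The number called lower was 3 in each setting run, and the number called higher was 1, except 0 at a 2-fold threshold. Count filters of 0 and 100 left all 9 genes in place. Without division by length, the share of Stab1 was 24.5% in WT and 38.7% in T403A. With 1 library per genotype, no library could be left out. No paired analysis was possible because each group has 1 sample. Depth limits Olr1, Stab2, Scarf2, Pecam1, Folr2 and Vsig4, which rest on under 10 counts in at least 1 library.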
